A study of Mus musculus with 26 samples.

Results

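Olfactory receptor genes (Olfr) and vomeronasal receptor genes (Vmn1r and Vmn2r) encode the G protein-coupled receptors of the nose, and their promoters were examined here in pluripotent cells, which are not chemosensory. Promoter Capture Hi-C (PCHi-C) joins HindIII fragments that are near each other in fixed nuclei and enriches the products that hold a baited promoter fragment. Receptor baits are the baited fragments with a gene name that starts with Olfr or Vmn in any of the 3 deposited contact lists, and there were 700 of these among 19022 baits. Of the 700, 641 carry an Olfr name, 47 a Vmn1r name and 12 a Vmn2r name. Each carries 1 gene name, and 662 were named on the bait side of a list. The gene annotation (GENCODE M21) holds 1972 receptor genes, pseudogenes included, of which 696 have a bait of their name.

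Wild-type (WT) embryonic stem cells (ESCs) of the E14Tg2a line (129P2/OlaHsd) were grown on gelatin in serum with LIF. Nanog-/- ESCs are the RCNβH-B(t) line, a single line derived from E14Tg2a, grown in the same medium, with hygromycin during expansion. Epiblast stem cells (EpiSCs) came from 129S2 embryos and were grown on fibronectin in N2B27 with Activin A and bFGF, so that the cell state, the strain and the medium cannot be told apart in comparisons with EpiSCs. The strain label reads C57BL/6 for each, which goes against these lines. PCHi-C was sequenced in 5 lanes for WT ESCs, 2 for EpiSCs and 5 for Nanog-/- ESCs, and the authors combined the replicates of each state into 1 list before deposit.

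Receptor genes lie in tandem clusters. A mature olfactory neuron transcribes a single receptor allele, and the other receptor clusters are packed into heterochromatin that gathers within its nucleus. LHX2, LDB1 and the EBF factors act on receptor promoters and enhancers in these neurons. V1R receptors signal through Gnai2 and V2R receptors through Gnao1. The class I receptor genes, the family most like those of fish, form a single cluster on chromosome 7 around the beta-globin genes.

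The promoters of 6 receptor baits are shown because the results turn on them. Olfr1347 and Olfr1441 had the most contacts in WT ESCs, Olfr223 the most in Nanog-/- ESCs, Vmn1r1 the most of the vomeronasal receptors, and Olfr613 and Olfr985 the highest RNA levels. The sequences are from RefSeq (GRCm38.p6), run 5′ to 3′ on the gene's strand from 250 bases before the annotated start to 50 bases after it, and have matches to 4 short motifs in capitals. They lie at chr7:6488823-6489122 (minus strand, Olfr1347), chr19:12422061-12422360 (plus strand, Olfr1441), chr11:59590038-59590337 (minus strand, Olfr223), chr1:182158049-182158348 (minus strand, Vmn1r1), chr7:103550118-103550417 (plus strand, Olfr613) and chr9:40127990-40128289 (minus strand, Olfr985).
Olfr1347: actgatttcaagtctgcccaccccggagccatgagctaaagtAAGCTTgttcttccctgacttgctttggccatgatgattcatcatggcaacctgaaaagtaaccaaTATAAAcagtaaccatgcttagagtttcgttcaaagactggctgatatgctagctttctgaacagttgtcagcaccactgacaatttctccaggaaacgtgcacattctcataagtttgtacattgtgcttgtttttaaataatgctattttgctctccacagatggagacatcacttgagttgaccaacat
Olfr1441: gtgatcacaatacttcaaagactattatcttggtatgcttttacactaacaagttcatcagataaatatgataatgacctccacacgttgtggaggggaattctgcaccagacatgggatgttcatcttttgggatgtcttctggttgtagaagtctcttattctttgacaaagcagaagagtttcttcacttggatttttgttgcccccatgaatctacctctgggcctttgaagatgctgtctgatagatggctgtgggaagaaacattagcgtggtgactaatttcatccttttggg
Olfr223: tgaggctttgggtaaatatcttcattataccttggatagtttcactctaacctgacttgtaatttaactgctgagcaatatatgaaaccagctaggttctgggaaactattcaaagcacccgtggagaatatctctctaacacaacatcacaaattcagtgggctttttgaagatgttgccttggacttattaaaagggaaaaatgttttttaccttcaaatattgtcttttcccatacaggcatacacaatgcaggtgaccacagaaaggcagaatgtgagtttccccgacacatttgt
Vmn1r1: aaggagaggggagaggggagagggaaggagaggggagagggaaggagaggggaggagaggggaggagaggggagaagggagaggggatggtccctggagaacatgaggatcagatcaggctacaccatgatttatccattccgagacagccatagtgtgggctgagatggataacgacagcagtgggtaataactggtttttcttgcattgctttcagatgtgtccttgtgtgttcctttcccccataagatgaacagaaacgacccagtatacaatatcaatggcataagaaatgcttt
Olfr613: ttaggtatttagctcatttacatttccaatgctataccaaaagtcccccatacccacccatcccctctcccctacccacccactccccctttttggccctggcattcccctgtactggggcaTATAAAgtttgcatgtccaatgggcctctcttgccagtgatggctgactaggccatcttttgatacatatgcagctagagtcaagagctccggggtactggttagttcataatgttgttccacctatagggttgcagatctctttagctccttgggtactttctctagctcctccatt
Olfr985: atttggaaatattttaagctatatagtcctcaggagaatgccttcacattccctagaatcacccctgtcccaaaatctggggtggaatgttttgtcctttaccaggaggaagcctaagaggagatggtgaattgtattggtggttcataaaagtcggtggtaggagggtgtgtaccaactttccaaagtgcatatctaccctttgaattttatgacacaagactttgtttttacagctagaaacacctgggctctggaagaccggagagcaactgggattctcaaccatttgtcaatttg

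The motifs were the HindIII site AAGCTT, the homeodomain core TAATTA, the TATA box core TATAAA and CCCNNGGG, the core of the sites that EBF proteins bind, each searched on both strands and none overlapping another in these 6 promoters. Olfr1347 holds an AAGCTT and a TATAAA, Olfr613 a TATAAA, and the other 4 hold no match in this window. In Olfr1347, Olfr1441, Olfr223 and Vmn1r1 the 50 bases after the annotated start begin with ATG. The annotated start may there be that of the coding sequence. Whether the annotated starts of receptor genes are those of transcription was not tested, here and for the shares that follow. RefSeq promoters were matched for 585 of the receptor baits' genes. Of these 587 promoters, 37.0% (95% interval 33.2 to 40.9) hold TATAAA and 17.5% (14.7 to 20.8) hold TAATTA, against 13.6% and 5.29% of 32841 promoters of all genes. CCCNNGGG is in 2.73% (1.68 to 4.38) of the receptor promoters and 13.7% of all promoters, and AAGCTT in 8.35% and 7.46%. The receptor promoters had a median GC content of 36.3% and all promoters 52.7%, and the part of this difference in the shares was not tested.

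The RNA-seq values matched their labels at the marker genes. They are the authors' median RPKM (reads per kilobase of gene, scaled to library size) per state. The PCHi-C libraries are separate samples, and no marker check was made on them. Nanog was at 418 RPKM in WT ESCs, 361 in EpiSCs and 22.3 in the Nanog-/- ESCs. Klf4, a naive-state factor, was at 93 RPKM in WT ESCs and 10.9 in EpiSCs, and Fgf5, a marker of the primed state, at 4.74 and 219 RPKM. The fibroblast collagen gene Col1a1 was at 15 RPKM in WT ESCs and 137 in EpiSCs. The summed RPKM of 4 primitive endoderm genes was 2.9 in WT ESCs, 112 in EpiSCs and 43.4 in the Nanog-/- ESCs. Foxa2 made up most of the sum in EpiSCs (0.831 RPKM in WT ESCs, 90.5 in EpiSCs and 2.54 in the Nanog-/- ESCs), and the others were Gata4 (1.29, 0.976 and 18.5), Gata6 (0.538, 8.17 and 16.4) and Sox17 (0.237, 12.6 and 5.93). Whether other cells were present in the cultures, and their part in the contacts, was not tested. The lists hold 100492 different contacts in WT ESCs, 87369 in EpiSCs and 74931 in the Nanog-/- ESCs, each with a CHiCAGO score of at least 5, where the score weighs the reads against those expected at that distance. Sums of reads over the listed contacts were 2177284, 1651286 and 1438555, and total library depths are unknown. With 1 combined list per state there is no replicate error, no test was made, and intervals are Wilson 95% intervals for counting error only. Contacts of the same bait are not independent, so that these intervals are too narrow.

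The receptor promoters had fewer listed contacts in EpiSCs and in Nanog-/- ESCs than in WT ESCs, by more than the lists as a whole. Receptor baits took part in 2423 contacts in WT ESCs, 1266 in EpiSCs and 993 in the Nanog-/- ESCs. These are 0.522 and 0.41 times the WT ESC number, against 0.869 and 0.746 times for all contacts. As a share of all listed contacts they were 2.41% (2.32 to 2.51) in WT ESCs, 1.45% (1.37 to 1.53) in EpiSCs and 1.33% (1.25 to 1.41) in the Nanog-/- ESCs. With each list reduced to its 74931 contacts of highest score, the shares were 2.3%, 1.39% and 1.33%.

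In WT ESCs, 651 of the 700 receptor baits (93.0%, 90.9 to 94.7) had at least 1 contact, against 89.7% of all baits. In EpiSCs 480 did (68.6%, 65.0 to 71.9), against 85.0% of all baits, and in Nanog-/- ESCs 305 did (43.6%, 39.9 to 47.3), against 74.7%. The 3804 other baits whose genes were under 1 RPKM in each state, called silent baits here, had a contact in 89.9%, 82.9% and 74.3% of cases. The median number of contacts per receptor bait was 3 (2 to 3) in WT ESCs, 1 (1 to 1) in EpiSCs and 0 (0 to 0) in the Nanog-/- ESCs, and the means were 4.62, 2.35 and 1.79. For silent baits the medians were 4, 3 and 2. The receptor baits with a contact overlapped between states. A total of 264 had a contact in each of the 3 lists, 173 in WT ESCs and EpiSCs, 30 in WT and Nanog-/- ESCs, 5 in EpiSCs and Nanog-/- ESCs, 184 in WT ESCs alone, 38 in EpiSCs alone and 6 in Nanog-/- ESCs alone. Baits with a contact in each list were 37.7% of the receptor baits, 63.9% of silent baits and 64.9% of all baits, and those in WT ESCs alone 26.3%, 9.02% and 7.86%. A fragment is known as a bait only where at least 1 list names it, so that a promoter without a contact in any list is not counted, in each of these groups. The 184 receptor baits entered through the WT ESC list alone, and the shares with a contact are in part fixed by that.

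Olfr and Vmn1r baits both had fewer contacts in EpiSCs and in Nanog-/- ESCs. Olfr baits had means of 4.74, 2.44 and 1.88 contacts in WT ESCs, EpiSCs and Nanog-/- ESCs, and Vmn1r baits 3.79, 1.51 and 0.872. The 12 Vmn2r baits had 17, 6 and 6 contacts in all, which is too few to rank them.

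By number, 200 receptor baits (28.6%) had at least 2-fold and at least 3 contacts fewer in EpiSCs than in WT ESCs, against 18.0% of all baits, and 13 (1.86%) had as many more, against 9.27%. In Nanog-/- ESCs 254 receptor baits (36.3%) had fewer by that rule, against 18.9%, and 4 (0.571%) had more, against 3.62%. For silent baits the shares were 21.7% fewer and 6.52% more in EpiSCs, and 21.2% fewer and 3.34% more in Nanog-/- ESCs.

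**Figure D1:**
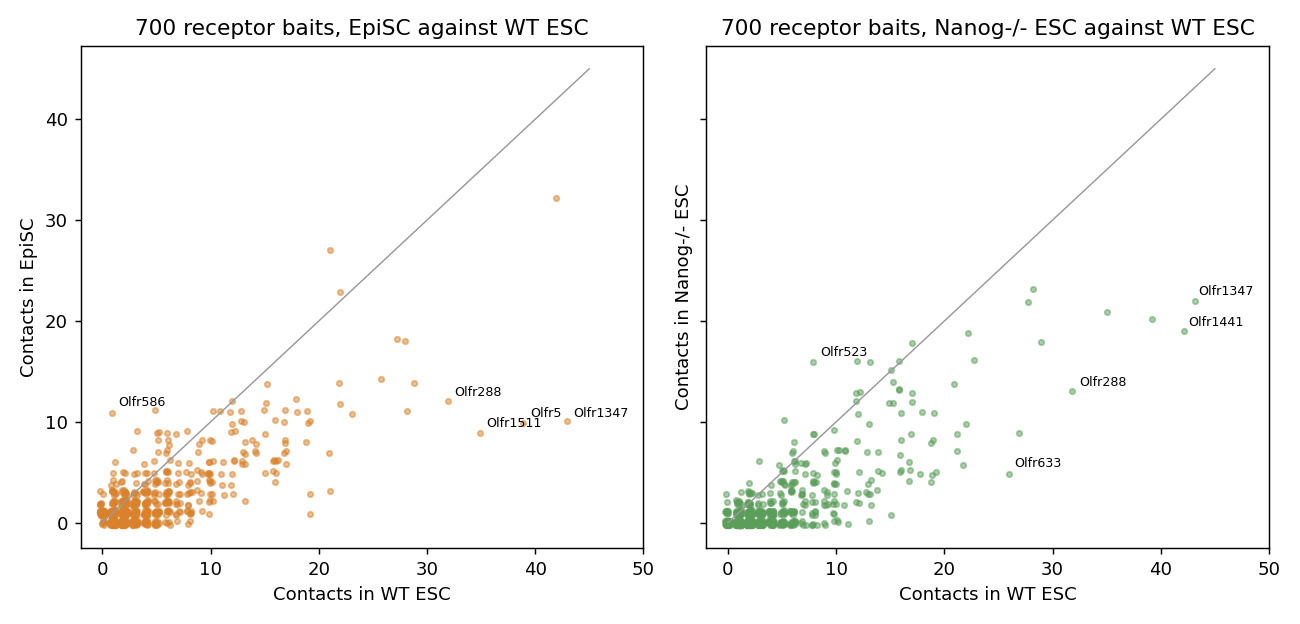
Contacts of each of the 700 receptor baits in EpiSCs (left) and Nanog-/- ESCs (right), on the vertical axis, against WT ESCs on the horizontal axis, with points moved slightly at random so that equal values can be seen, and a line at equal numbers. In EpiSCs 515 baits had fewer and 101 had more contacts than in WT ESCs, and in Nanog-/- ESCs 580 had fewer and 41 had more.

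The bait with the most contacts in WT ESCs was that of Olfr1347 (chromosome 7, 6487553 to 6489075, an exon of the gene), with 43 contacts in WT ESCs, 10 in EpiSCs and 22 in the Nanog-/- ESCs. Its median contact distance was 64.1, 25.7 and 31.9 kb, and 7 receptor baits of its cluster were among its partners in each list. The neighbouring bait of Olfr5 had 39, 10 and 20 contacts, and that of Olfr1348 had 21, 3 and 9. These baits share a cluster of 8 (Olfr1344 to Olfr1350), which had 157 contacts in WT ESCs, 46 in EpiSCs and 82 in the Nanog-/- ESCs. Olfr1511, on chromosome 14, had 35, 9 and 21 contacts. In this group EpiSCs were the lowest of the 3 states. Each bait named here is among the 8 with the largest loss in EpiSCs, so that this order is in part fixed by the choice of baits.

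The bait of Olfr1441 (chromosome 19, 12420718 to 12423020) kept more of its contacts in EpiSCs, with 42 in WT ESCs, 32 in EpiSCs and 19 in the Nanog-/- ESCs. All of these lay in its own cluster, at medians of 303, 303 and 298 kb, and 29 of the 42 WT ESC contacts were also listed in EpiSCs. Olfr76, its partner across 301 kb, had 22, 23 and 10 contacts. The contact between them had 25 reads in the WT ESCs, 22 in EpiSCs and 13 in the Nanog-/- ESCs. A fragment without a bait, 288 kb from Olfr1441 (chromosome 19, 12133601 to 12134042, intergenic), was joined to it by 25, 28 and 17 reads. Both contacts were thus listed in the 3 states, with Nanog-/- ESCs lowest in reads.

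Olfr223 (chromosome 11) had 28 contacts in WT ESCs, 18 in EpiSCs and 23 in the Nanog-/- ESCs. Vmn1r1, a vomeronasal receptor that stands alone on chromosome 1, had 28, 11 and 22, none with another receptor bait. In the class I cluster, Olfr561 had 27, 18 and 9 contacts and Olfr633 had 26, 14 and 5, with Nanog-/- ESCs lowest for both. Of the WT ESC partners of Olfr633, 22 were receptor baits, and its contacts reached 1413 kb.

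Few receptor baits gained contacts, and 4 of the 8 largest gains in EpiSCs, ranked by number, lay in the class I cluster. That cluster has 91 of the 700 receptor baits and had 229 of the 1266 receptor contacts in EpiSCs. Olfr586 had 1 contact in WT ESCs, 11 in EpiSCs and 0 in the Nanog-/- ESCs, each within its cluster. Olfr570 had 21, 27 and 14 contacts, Olfr67 had 3, 9 and 0, and Olfr584 had 5, 9 and 0. Vmn1r234 on chromosome 17 had 5, 11 and 2, all with fragments outside the receptor clusters. The largest loss in the class I cluster in EpiSCs was that of Olfr655, with 19 contacts in WT ESCs, 1 in EpiSCs and 5 in the Nanog-/- ESCs. Olfr412 on chromosome 11 had 19, 3 and 4. In Nanog-/- ESCs the largest gain was that of Olfr523, with 8, 3 and 16 contacts, followed by Olfr156 with 5, 2 and 10.

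The median contact of receptor baits was longer than that of all other baits in each list. The median distance was 189 kb (178 to 198) in WT ESCs, 183 kb (163 to 196) in EpiSCs and 96.6 kb (83.4 to 107) in Nanog-/- ESCs. Silent baits had medians of 162, 161 and 89.6 kb, and all other baits 138, 140 and 74.1 kb, so that in Nanog-/- ESCs the median of silent baits lay within the receptor interval. The shorter distance in Nanog-/- ESCs was thus shared by other promoters. Of the receptor contacts within a chromosome, 3.89% (93 contacts) were over 800 kb in WT ESCs and 4.06% (51) in EpiSCs. In Nanog-/- ESCs 0.61% (6 contacts, 0.28 to 1.32) were. The shares were 1.82%, 2.05% and 0.53% for silent baits and 1.25%, 1.75% and 0.367% for all other baits. In Nanog-/- ESCs these shares lay within the receptor interval. The longest receptor contact in WT ESCs ran through the class I cluster, from Olfr548-ps1 to Olfr648 over 1639 kb (4 reads, score 6.76). In EpiSCs the longest ran through the large cluster of chromosome 2, where Olfr1261 was joined to a fragment 1674 kb away (4 reads, score 5.22). Neither was listed in another state.

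Most receptor contacts had their other end within the span of the bait's own receptor cluster. Receptor baits less than 1 Mb from the next were joined into clusters, which gave 60 clusters on 18 chromosomes, 20 of them of 1 bait and 12 of at least 20 baits with 467 of the baits. The share of contacts whose other end lay in the bait's own cluster was 66.6% (64.7 to 68.4) in WT ESCs, 69.3% (66.7 to 71.8) in EpiSCs and 62.2% (59.2 to 65.2) in the Nanog-/- ESCs. Other ends outside clusters on the same chromosome made up 32.0%, 29.9% and 36.9%, and those on another chromosome 1.44%, 0.79% and 0.906%. A cluster runs from its first to its last receptor bait, so that ends outside clusters include receptor genes, such as fragments with exons of Olfr1328 and Vmn1r184. In WT ESCs the own-cluster share was 5.0% for Olfr520 to Olfr521 (35.9 kb) and 87.4% for Olfr987 to Olfr1270 (4817 kb). The part of cluster span in this share was not tested.

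No contact joined different receptor clusters, on the same or on another chromosome, in any of the 3 lists. Clusters are spans of receptor baits, so that receptor genes outside these spans are not covered. By the limit of 3 counts, which is not a Wilson interval, a count of 0 allows shares of up to 0.124% of the receptor contacts in WT ESCs, 0.237% in EpiSCs and 0.302% in the Nanog-/- ESCs. Clusters are at least 1 Mb apart by their construction, a distance that few listed contacts span. With a gap of 250 kb in place of 1 Mb there were 77 clusters, and 20 contacts between receptor baits of different clusters in WT ESCs, 3 in EpiSCs and 4 in the Nanog-/- ESCs. Of contacts between receptor baits of different chromosomes there were 0 in each list.

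Both ends were receptor baits in 808 contacts in WT ESCs (33.3%, 31.5 to 35.2), 379 in EpiSCs (29.9%, 27.5 to 32.5) and 258 in the Nanog-/- ESCs (26.0%, 23.4 to 28.8). Nearly all joined Olfr to Olfr baits (784, 370 and 256), and contacts between Vmn1r baits numbered 21, 6 and 1. Any bait stood at the other end of 52.6%, 50.3% and 48.6% of the receptor contacts, against 22.8%, 18.1% and 21.9% for other baits. Baits lie close together in receptor clusters, and the part of that spacing was not tested. Partners without a bait in the own cluster overlapped a receptor gene in 40.8% (36.2 to 45.6) of 414 fragments in WT ESCs, 40.1% in EpiSCs and 44.9% in the Nanog-/- ESCs. Of all 11540 fragments without a bait in the clusters, 27.9% did. Median fragment lengths were 2001, 1429 and 1580 bp for the partners and 1975 bp for all.

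The contact with the highest score in WT and Nanog-/- ESCs joined the neighbours Olfr206 and Olfr209 on chromosome 16, 12.1 kb apart, with 289 reads and a score of 163.37 in WT ESCs. It had 53 reads and a score of 42.66 in EpiSCs, and 126 reads and 144.24 in Nanog-/- ESCs. Olfr1337, on chromosome 4, was joined over 156 kb to a fragment with an exon of Olfr1328 by 68 reads in the WT ESCs, 50 in EpiSCs and 58 in the Nanog-/- ESCs. Vmn1r185, on chromosome 7, was joined over 354 kb to a fragment with an exon of Vmn1r184 by 9 reads in WT ESCs and 27 in Nanog-/- ESCs, and the contact was not listed in EpiSCs. The order of the states thus differed between the contacts of highest score.

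The decline was seen in most clusters with at least 10 contacts in WT ESCs. Of these 38 clusters, 37 had fewer in EpiSCs and 36 fewer in the Nanog-/- ESCs. The median cluster had 45.1% of its WT ESC number in EpiSCs (range 18.8 to 109%) and 34.0% in Nanog-/- ESCs (3.33 to 106%), against 87.6% and 75.3% for contacts of all other baits. The 38 were chosen by their WT ESC number, which favours lower numbers in the other states, in these counts and medians. Of the clusters left out, Olfr460 had 2 contacts in WT ESCs and 5 in EpiSCs, and Olfr266 had 6 and 2. The largest cluster, Olfr987 to Olfr1270 on chromosome 2 (85336556 to 90153180), has 99 receptor baits and had 135 contacts in WT ESCs, 68 in EpiSCs and 14 in the Nanog-/- ESCs. The class I cluster, Olfr543 to Olfr692 on chromosome 7 (102474232 to 105371538, 91 baits), had 350, 229 and 126.

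Of the other large clusters, Olfr1417 to Olfr1500 on chromosome 19 (36 baits) had 193 contacts in WT ESCs, 102 in EpiSCs and 67 in the Nanog-/- ESCs, and Olfr151 to Olfr986 on chromosome 9 (44 baits) had 60, 44 and 18. Of the clusters with at least 10 contacts in WT ESCs, 3 had at most 2 in Nanog-/- ESCs. Olfr768 to Olfr827 on chromosome 10 (31 baits) had 53, 20 and 2 contacts, Olfr1275 to Olfr1318 on chromosome 2 (20 baits) had 30, 11 and 1, and Vmn1r66 to Vmn1r87 on chromosome 7 (13 baits) had 30, 12 and 1. Contacts per bait did not follow cluster size in a steady order. The 51 baits in clusters of 1 to 4 had means of 5.49, 2.53 and 3.22 contacts, the 50 in clusters of 5 to 9 had 11, 5.14 and 7.5, the 132 in clusters of 10 to 19 had 3.44, 1.98 and 1.53, and the 467 in clusters of at least 20 had 4.17, 2.13 and 1.09. By these class means EpiSCs were lowest in clusters under 10 baits, and Nanog-/- ESCs in the others. Single clusters could differ. Vmn1r178 to Vmn1r181 (2 baits) had means of 4.0 in EpiSCs and 2.0 in Nanog-/- ESCs, and Olfr522 to Olfr541 (11 baits) 1.82 and 4.09.

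**Figure D2:**
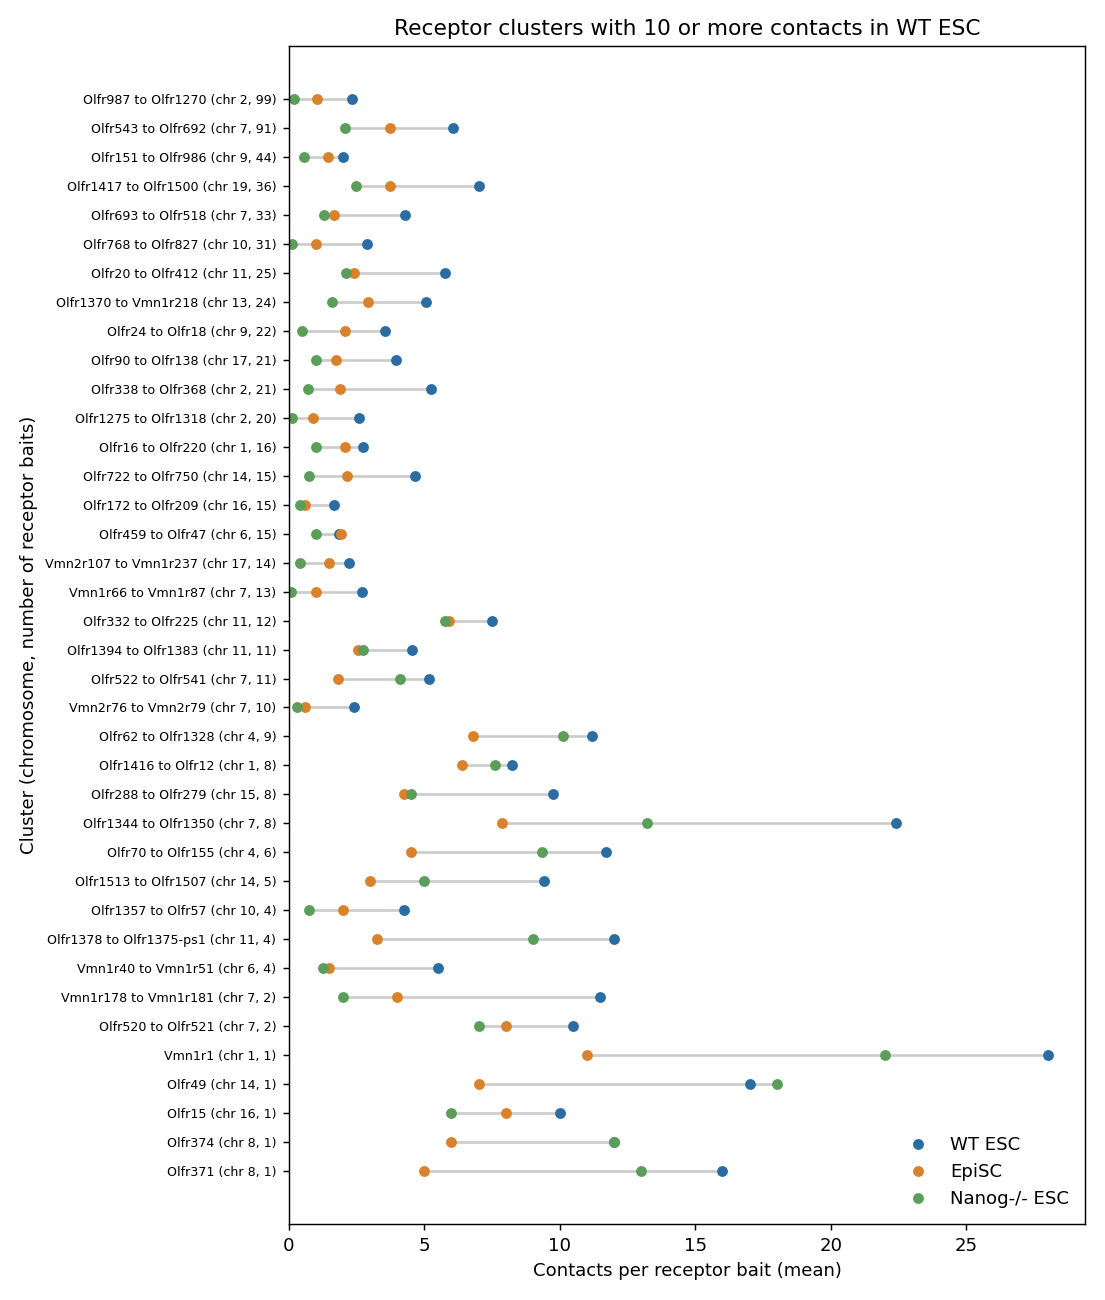
Mean contacts per receptor bait (horizontal axis) in the 38 receptor clusters with at least 10 contacts in WT ESCs, ordered by number of baits, with 1 point per state and a grey line over their range. In the 12 clusters of at least 20 baits, at the top, the order was WT ESCs, EpiSCs, Nanog-/- ESCs in each, whereas in the cluster Olfr1344 to Olfr1350 EpiSCs were lowest.

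The number of contacts moved with the distance of the receptor bait from an expressed promoter, taken as the nearest of 8830 other baits at 1 RPKM or more in each state. Receptor baits lay a median of 281 kb from one, silent baits 82.1 kb. The 83 receptor baits within 50 kb had means of 7.25 ± 0.635 contacts (SE over baits) in WT ESCs, 3.95 ± 0.384 in EpiSCs and 4.49 ± 0.511 in the Nanog-/- ESCs. The 93 receptor baits at 1000 kb or more had 2.04 ± 0.198, 0.774 ± 0.131 and 0.0753 ± 0.0382. Of these, 91.4% had a contact in WT ESCs, 43.0% in EpiSCs and 5.38% (2.32 to 12.0) in the Nanog-/- ESCs, again among baits named in at least 1 list. The 93 baits lie in 7 clusters, with 60 in Olfr987 to Olfr1270. Without that cluster the means were 2.09, 0.636 and 0.121. The SEs take baits as independent, which baits of the same cluster are not, and they hold no replicate error.

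Silent baits also had fewer contacts far from expressed promoters, though with a smaller decline in EpiSCs and Nanog-/- ESCs. The 111 silent baits at 1000 kb or more had means of 3.18 ± 0.499 contacts in WT ESCs, 3.08 ± 0.515 in EpiSCs and 1.08 ± 0.295 in the Nanog-/- ESCs. At equal distance from an expressed promoter the contacts of receptor baits were not longer throughout. In WT ESCs their median was longer within 50 kb (161 kb, and 131 kb for silent baits) and at 500 to 1000 kb (289 and 272 kb). In the other ranges it was equal or shorter, with 156 and 159 kb at 50 to 100 kb. In EpiSCs the receptor median was longer in each range (346 and 281 kb at 1000 kb or more) except 50 to 100 kb (134 and 151 kb). In Nanog-/- ESCs it was longer within 50 kb (94.8 and 72.5 kb), at 500 to 1000 kb (214 and 195 kb) and at 1000 kb or more (140 and 105 kb). From 50 to 500 kb it was shorter in Nanog-/- ESCs, with 68.3 and 90.3 kb at 50 to 100 kb. Base composition moves with this distance, since GC content in 100 kb around the bait was 42.3% for receptor baits within 50 kb and 36.7% for those at 1000 kb or more (39.0% for silent baits at that distance). Its part in the contact numbers was not tested.

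**Figure D3:**
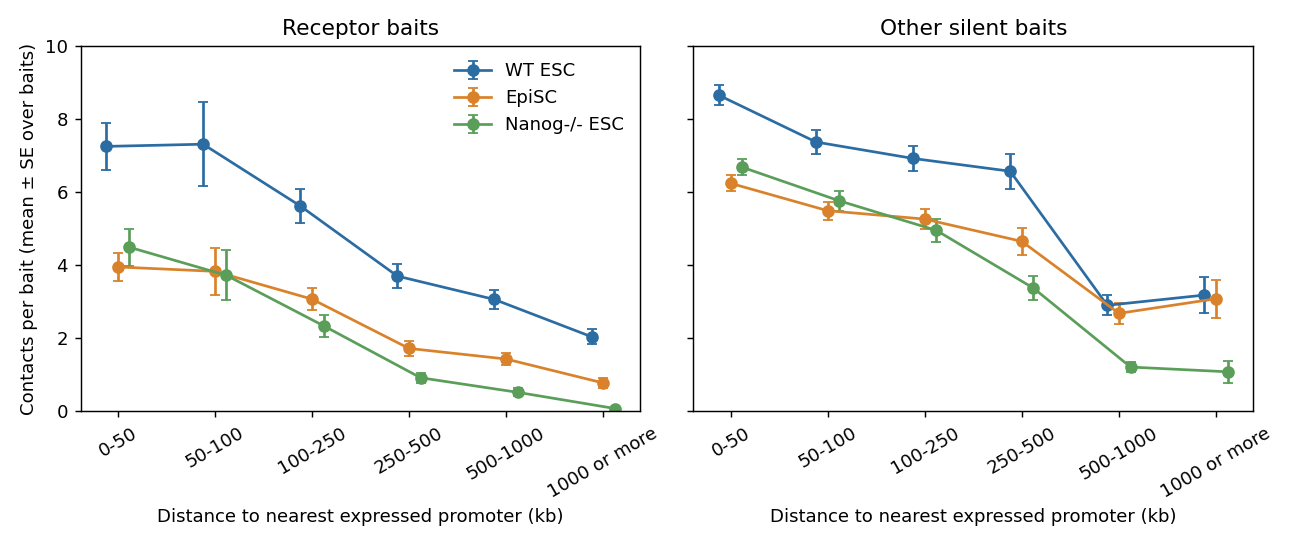
Mean contacts per bait ± SE over baits (vertical axis) by distance to the nearest expressed promoter in kb (horizontal axis), for receptor baits (left) and silent baits (right), with 1 line per state. The SE is a spread over baits of 1 combined list and not a replicate error. At 1000 kb or more, receptor baits had 2.04 contacts in WT ESCs and 0.0753 in Nanog-/- ESCs, and silent baits 3.18 and 1.08.

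Of the 2423 receptor contacts in WT ESCs, 24.3% (22.6 to 26.0) were also listed in EpiSCs, joining the same pair of fragments, and 24.2% (22.5 to 25.9) in Nanog-/- ESCs. Of all WT ESC contacts 39.6% and 41.8% were. Receptor contacts had fewer reads than those of other baits (median 10 against 13 in WT ESCs), and contacts with few reads were kept less often in each group. At 21 to 50 reads, 41.2% (36.3 to 46.4) of the receptor contacts were kept in EpiSCs and 49.6% (44.4 to 54.7) in the Nanog-/- ESCs, against 52.8% and 72.2% for silent baits. At 51 reads or more, receptor contacts were kept in 60.0% (52.4 to 67.2) and 71.5% (64.2 to 77.9), against 61.0% and 90.3%. In EpiSCs the intervals of the most deeply read contacts thus overlapped, and in Nanog-/- ESCs they did not. Within 25 kb, 47.9% of receptor contacts were kept in EpiSCs and 54.4% in the Nanog-/- ESCs, against 52.2% and 79.3% for silent baits.

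**Figure D4:**
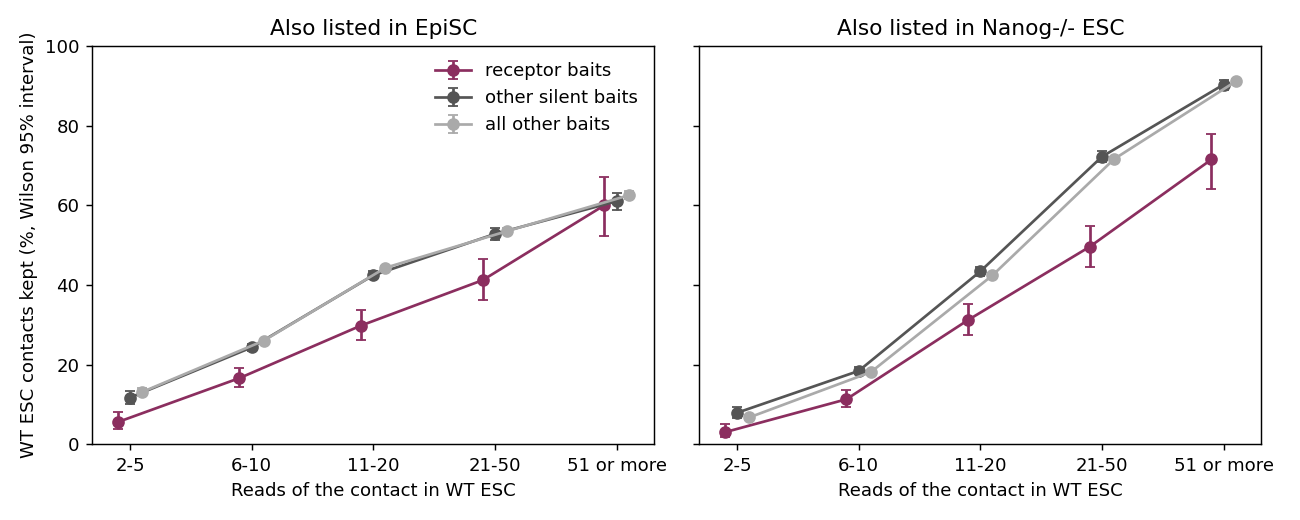
Share of WT ESC contacts also listed in EpiSCs (left) and in Nanog-/- ESCs (right), in percent with Wilson 95% intervals (vertical axis), by the reads of the contact in WT ESCs (horizontal axis), for receptor baits, silent baits and all other baits. At 51 reads or more, 71.5% of receptor contacts and 90.3% of those of silent baits were kept in Nanog-/- ESCs.

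Over the 3 lists there were 3452 different receptor contacts, of which 301 were in each list and 1550 in that of WT ESCs alone. Contacts not listed in WT ESCs made up 53.6% (50.8 to 56.3) of the receptor contacts in EpiSCs and 41.0% (38.0 to 44.1) in the Nanog-/- ESCs, close to the 54.5% and 44.0% of other baits. A contact missing from a list was not called there, which does not show that it was absent.

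Of the baits that are not receptors, Trim21, which encodes an antibody receptor of the cytosol and lies within the class I cluster, was in contact with the most receptor baits, 17 over the 3 lists. It was joined to 12 in WT ESCs, 6 in EpiSCs and 7 in the Nanog-/- ESCs, at 3.53, 25.7 and 3.29 RPKM. The next was 4931431F19Rik in the same cluster with 13 receptor baits (9, 4 and 6). Mpeg1, which encodes perforin-2 of macrophages, lies in the chromosome 19 cluster and was joined to 9 (7, 4 and 2), at 0.898, 10.1 and 2.58 RPKM. Lao1 and Gm12853, beside the chromosome 4 cluster, were joined to 9 each, as was Aspa beside that of chromosome 11. Of the partner baits with an RPKM value, 48.1% (41.1 to 55.2) were at 1 RPKM or more in WT ESCs, 53.3% in EpiSCs and 49.5% in the Nanog-/- ESCs. Of all baits that are not receptors 65.3%, 68.7% and 66.5% were. Baits were sorted by name alone, silent baits included. V1rh19, a vomeronasal receptor under an older name, thus counts among the partners that are not receptors. Among the beta-globin baits within the class I cluster, Hbb-b1 had 0, 3 and 0 contacts and Hbb-bh2 had 3, 2 and 0.

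Contacts with another chromosome numbered 35 in WT ESCs, 10 in EpiSCs and 9 in the Nanog-/- ESCs, which are 40 different contacts with 25 partner fragments, none of them a bait. They had 2 to 11 reads. Of the partners, 8 were joined to at least 2 receptor baits, in each case baits of 1 cluster. A fragment on chromosome 6 (71664119 to 71670305, intergenic) was joined to Olfr849, Olfr850, Olfr851, Olfr855 and Olfr871, which span 773 kb of chromosome 9, with 6 reads for Olfr850 in WT ESCs and 3 in EpiSCs. A fragment of 255 bp on chromosome 14 (27562333 to 27562587) was joined to Olfr175-ps1, Olfr178, Olfr181 and Olfr187 on chromosome 16. Its contact with Olfr175-ps1 had 6 reads in the WT ESCs, 11 in EpiSCs and 5 in the Nanog-/- ESCs and was 1 of 10 listed in at least 2 states. By BLAST against the bait region with 50 kb on either side, 17 of the 25 partner fragments had a match, and 2 had one outside annotated repeats. How far these matches, or sequence that differs between the 129 strains and the reference genome, bear on the contacts was not tested.

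Receptor genes had almost no RNA in these cells. Of 698 receptor genes in the RNA-seq table, 606 were listed at 0 in each state, 89 stayed between 0 and 1 RPKM and 3 reached 1 RPKM in at least 1 state. Olfr613, in the class I cluster, was at 13.5 RPKM in WT ESCs, 2.79 in EpiSCs and 17.2 in the Nanog-/- ESCs, and its bait had 3, 0 and 0 contacts. Olfr985 was at 3.8, 0.0867 and 4.29 RPKM, with 1 contact in each state. Olfr31 was at 0.686, 2.87 and 0.489 RPKM, with 1, 0 and 0 contacts. Reads can be shared among near-identical receptor genes, so that values of single receptors are uncertain, and the medians carry no error.

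On the scale of log2(RPKM + 1), 1 receptor gene was at least 2-fold higher in EpiSCs than in WT ESCs (30.1% of all genes were) and 2 were lower (5.78%). In Nanog-/- ESCs 0 were higher (1.69%) and 0 lower (1.35%). A 2-fold difference on this scale needs at least 1 RPKM in 1 state, so that only 3 receptor genes could be called. The median over all genes was 0.46 higher in EpiSCs on this scale and 0.01 higher in Nanog-/- ESCs. That over receptor genes was 0.0 in both, as it had to be with 606 of 698 at 0 in each state. Of the 3 genes, Olfr31 was the higher in EpiSCs, and Olfr613 and Olfr985 the lower.

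Among 24 genes of olfactory and vomeronasal signalling and receptor choice, 17 had an RPKM value and 7 were at 1 RPKM or more in WT ESCs. In EpiSCs 3 were at least 2-fold higher (30.1% of all genes were) and 0 lower (5.78%), with a median log2 difference of 0.54 against 0.46 over all genes, and in Nanog-/- ESCs 0 were higher (1.69% of all genes) and 0 lower (1.35%). The 3 were Gnao1 (1.19 RPKM in WT ESCs, 6.54 in EpiSCs, 1.1 in Nanog-/- ESCs), Gnai2 (259, 937 and 265) and Ebf4 (0.503, 8.54 and 0.599). The neuronal genes Omp (0.733, 0.341 and 0.9) and Cnga2, a channel subunit of olfactory transduction (0, 0.0174 and 0.0213), stayed under 1 RPKM. Lhx2, a regulator of receptor choice, was at 0.0946, 0.627 and 0.21 RPKM. Gnal, which encodes the G protein of olfactory receptor signalling, was at 0.995, 2.96 and 0.941 RPKM, so that of these 3 neuronal genes it alone passed 1 RPKM, in EpiSCs.

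Of 16 heterochromatin and nuclear lamina genes, 12 had an RPKM value and each of these was at 1 RPKM or more in the 3 states. In EpiSCs 4 were at least 2-fold higher and 0 lower (30.1% and 5.78% of all genes), with a median log2 difference of 0.8 against 0.46 over all genes, and in Nanog-/- ESCs 1 was higher and 0 lower (1.69% and 1.35%). Lmna, the gene of lamin A and C, was at 14.5 RPKM in WT ESCs, 47 in EpiSCs and 30.6 in the Nanog-/- ESCs. The lamin B receptor gene Lbr, whose product holds heterochromatin at the nuclear envelope, was at 132, 247 and 100 RPKM, and Cbx5, which encodes HP1α, at 119, 301 and 102.

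The trace amine-associated receptors and formyl peptide receptors, other chemoreceptors with 12 baits in all, also had fewer contacts in both states, with 48 in WT ESCs, 33 in EpiSCs and 21 in the Nanog-/- ESCs. In the 11 with RPKM values the highest value was 0.0367 (Taar9 in EpiSCs). Taar7a, with the most contacts of these, had 11, 8 and 4.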

How the data were processed

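PCHi-C contact lists of WT ESCs, EpiSCs and Nanog-/- ESCs and an RNA-seq table were used. ChIP-seq samples of EpiSCs were not analysed here. The authors filtered PCHi-C read pairs with HiCUP and scored HindIII fragment pairs with CHiCAGO in GRCm38, and Bowtie 1.1.0 is named in the submitters' processing notes. Each deposited list gives the read count of a contact and its CHiCAGO score, combined over replicates. The authors deposited RPKM values as the median of 3 WT ESC, 4 EpiSC and 3 Nanog-/- ESC samples, and their fold changes and p-values, also in the table, were not used. The third median column carries a short line code and was taken as that of Nanog-/- ESCs, since the others name ESCs and EpiSCs.

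A contact listed from both ends was counted once, with its higher score. Both ends of all 700 receptor fragments are HindIII sites in GRCm38. Distances are between fragment midpoints. Numbers of contacts were compared past 2-fold with a difference of at least 3, and RPKM past 2-fold on log2(RPKM + 1). Per state, the text names the baits with the most contacts, the contacts of highest score and greatest length, the largest gains and losses, the partners of most receptor baits, the largest clusters and the receptor genes at 1 RPKM or more. The members, lists and rules were chosen with earlier results of these data known. Counting of contacts and clusters was tested on simulated data. Alternatives were a score of at least 7, at least 10 reads, scaling to list size, other cluster gaps, folds, pseudocounts and RPKM thresholds. Python 3.11.15 was used with numpy 2.4.6, pandas 2.3.3, scipy 1.17.1, matplotlib 3.10.9, pyfaidx 0.9.0.4 and BLAST+ 2.17.0 (e-value limit 1e-05).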

Additional observations from a re-analysis of the deposited data

How the results depend on the processing

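No paired analysis was possible because the contact lists are combined over replicates and the RPKM values are medians of their group, for which reason no replicate could be left out either. Of 97 recomputed values, 50 stayed within the interval of the reported value, or within 1.5 times a reported count, and 47 moved. The order WT ESCs, EpiSCs, Nanog-/- ESCs held for the share of receptor baits with a contact under each alternative. At a score of at least 7 that share was 58.9%, 36.0% and 25.1%, and at 10 reads or more 63.1%, 41.6% and 30.0%. The median number of contacts per receptor bait became 1.0 in WT ESCs and 0.0 in EpiSCs under both. The median distance was 167 kb in WT ESCs and 67.3 kb in Nanog-/- ESCs at a score of at least 7, and 69.5, 45.7 and 24.6 kb in WT ESCs, EpiSCs and Nanog-/- ESCs at 10 reads or more.

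The share of contacts within the own cluster was 72.4%, 72.3% and 71.5% at 10 reads or more, 61.2%, 65.4% and 58.6% with a cluster gap of 250 kb, and 66.1% in EpiSCs at a score of at least 7. The higher share in EpiSCs than in WT ESCs thus was not seen at 10 reads or more. Contacts that join receptor baits made up 37.3% in WT ESCs and 30.2% in Nanog-/- ESCs at a score of at least 7, and 32.6% in EpiSCs at 10 reads or more. The following were chosen after seeing the data. The share of all contacts that have a receptor bait was 2.1%, 1.19% and 1.1% at a score of at least 7, 1.78%, 1.04% and 1.09% at 10 reads or more, and 2.3% in WT ESCs with lists of equal size. The order of EpiSCs and Nanog-/- ESCs turned at 10 reads or more. Counting only receptor baits named on the bait side moved none of the values it was applied to.

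The share of WT ESC receptor contacts kept rose to 40.2% in EpiSCs and 38.4% in Nanog-/- ESCs where the other end could lie within 10 kb, against 63.8% and 64.4% for other contacts, and was 37.0% and 40.0% for contacts with 10 reads or more. At a score of at least 7, 3 receptor baits had more and 82 fewer contacts in EpiSCs, and 83 had fewer in Nanog-/- ESCs. At 3-fold, 1 had more in Nanog-/- ESCs. With numbers scaled to list size, 15 had more and 152 fewer in EpiSCs, and 6 had more and 202 fewer in Nanog-/- ESCs. The shares over all baits at these settings were not computed. With a pseudocount of 0.1, 6 receptor genes were higher and 11 lower in EpiSCs, and 3 higher and 4 lower in Nanog-/- ESCs. At 0.5 RPKM, 6 receptor genes passed in WT ESCs. The cause of these changes was not tested. Contacts with few reads limit these lists, since most receptor contacts had about 10 reads or fewer.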
